A study of Sus scrofa with 4 samples.

Results

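CD4 helper T cells from the regenerated bone of Bama mini-pigs, 8 months old, were described here at the level of single-cell RNA. The groups were 2 libraries of regenerated bone from pigs given the 1797 peptide and 2 libraries from pigs given the control peptide; further control samples were not analysed here. Cells were released with type I collagenase, red cells were lysed, and libraries were made with a droplet 3′ kit that counts unique molecular identifiers (UMIs, one per captured RNA molecule). The labels do not say whether a library is 1 pig or a pool, what the 1797 sequence is, or how long after surgery the bone was taken. A cell was called a CD4 helper T cell when it had at least 200 genes and under 20% mitochondrial UMIs, at least 2 UMIs of the CD3 genes, at least 1 UMI of CD4 and at least 1 of CD28, IL7R or ICOS. It also had to have no UMI of FOXP3, BLK, CD79B, MS4A1 or CSF1R and at most 1 C1Q UMI. Members were thus chosen by their own UMI counts of these genes. The rule held for 1199 of 50935 kept cells, with 264 and 274 cells in 1797 libraries and 440 and 221 cells in control libraries.

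CD4 helper T cells read antigen presented on MHC class II, signal through the CD3 complex with help from CD28 and ICOS, and live on IL-7. After activation they help other cells through CD40 ligand and cytokines, and they take on programmes named for their regulators: T-bet for TH1, GATA3 for TH2 and BCL6 for follicular helpers. In bone they are known for cytokines that act on osteoclasts and osteoblasts, among them RANKL (TNFSF11), IL-17, TNF and interferon gamma. In pigs, part of the CD4 T cells also carry CD8 alpha on their surface, a feature linked to activated and memory cells in that species.

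The 4 libraries held 85703483 and 98147495 UMIs in the 1797 group and 95669484 and 97892421 UMIs in the control group, in 12534 and 13145 kept cells against 13401 and 11855 kept cells. Any pair of libraries shared 37 to 48 cell barcodes, 0.30 to 0.38% of them. CD4 cells had a median of 8390.5 and 9014 UMIs in 1797 libraries and 8280.5 and 8758 UMIs in control libraries, and 53 of the 1199 were called doublets and kept. Levels below are CPM, that is UMIs of a gene per 1000000 UMIs summed over the cells of a gate in 1 library. RNA of other cells was present in these sums and was uneven. In the CD4 cells of 1797 library 1, 5 cells held 4910 of the 5367 collagen UMIs (COL1A1, COL1A2 and COL3A1). In those of control library 2, 1 cell held 1025 of the 1749 UMIs of the neutrophil peptide gene PR39.

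The genes of the rule are given as a description, since they chose the cells. CD4 (chromosome 5, 63892129 to 63918547, Sscrofa11.1) had a median of 3 and 2 UMIs per chosen cell in 1797 libraries and 2 and 3 in control libraries. CD3E was seen in 98.5 and 98.9% of chosen cells in 1797 libraries, against 98.9 and 98.6% in control libraries. IL7R, the IL-7 receptor chain, was seen in 76.9 and 85.8% against 76.8 and 78.7%. CD28 was seen in 65.2 and 55.8% against 58.2 and 60.6%. ICOS was seen in 50.4 and 39.4% against 43.0 and 42.1%. For scale, B cells had CD3E in 0%, CD4 in 0.671 to 4.21%, CD28 in 1.01 to 1.74%, ICOS in 0.349 to 1.29% and IL7R in 5.37 to 12.2%, at median depths of 9436 to 11903 UMIs. Since the rule asked for these genes, the shares say only how it was met. Of the chosen cells, 370 had a single CD4 UMI, 135 had exactly 2 CD3 UMIs and 174 had a single C1Q UMI. Just outside lay 148 cells that lacked only the second CD3 UMI and 262 CD3 cells with CD4 and no UMI of CD28, IL7R or ICOS.

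CD4 helper T cells made up 2.11% (95% exact binomial interval 1.86 to 2.37) and 2.08% (1.85 to 2.34) of kept cells in 1797 libraries. The control libraries gave 3.28% (2.99 to 3.6) and 1.86% (1.63 to 2.12). The 2 control libraries lay on either side of the 1797 libraries. The means were 2.10 ± 0.015% with 1797 and 2.57 ± 1.00% with the control peptide (SD, n = 2 each), and the two-sided exact permutation p was 1.0 where the smallest possible is 0.333. Without control library 1 the difference, 1797 minus control, changed its sign, at 0.231 percentage points against -0.478 with all libraries. Of cells with at least 2 CD3 UMIs, CD4 cells were 9.10 and 9.42% in 1797 libraries and 8.98 and 7.57% in control libraries. These groups did not overlap, with an exact permutation p of 0.333. Cells with at least 2000 UMIs were also thinned to 2000 UMIs and the rule was applied again. That left 64 and 46 CD4 cells in 1797 libraries and 111 and 49 in control libraries. In this smaller set the difference for CD3 cells was -0.446 points, against 0.983 at full depth. The intervals cover counting error only. The share of CD4 cells was not shown to differ in either direction.

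**Figure D1:**
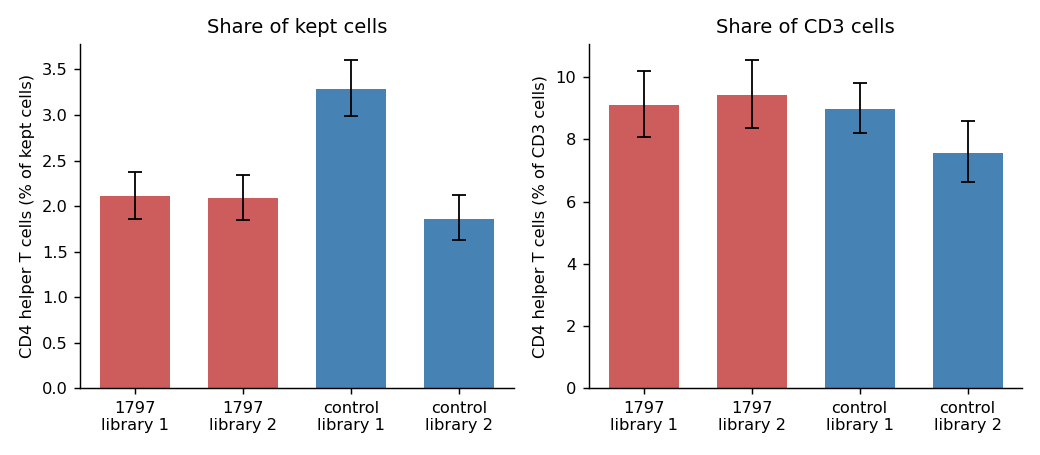
Share of CD4 helper T cells in each library, in percent of kept cells (left panel) and of CD3 cells (right panel). Bars are single libraries, 1797 in red and control in blue, and whiskers are 95% exact binomial intervals. Control library 1 stands highest in the left panel, at 3.28%, and control library 2 lowest in both, at 1.86 and 7.57%.

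A first comparison was with the CD8 T cells, 640 cells with at least 2 CD3 UMIs and 1 CD8B UMI, none of CD4, and the same genes barred. CD28, IL7R and ICOS were not asked of them. CD40LG and TNFRSF4 were higher in CD4 helper cells, and 14 of 16 killing genes were lower. Sums of the 2 gates were compared within libraries (edgeR quasi-likelihood test, library as block), leaving out the genes of the gates. Of 9935 genes tested, 1493 differed at an adjusted p under 0.05 (15%), 767 higher in CD4 cells (7.72%) and 726 lower (7.31%). Leaving out control library 1 gave 875. In such sums fewer cells in a state and less RNA per cell cannot be told apart.

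TNFRSF4 (OX40, a costimulatory receptor of activated CD4 cells, chromosome 6, 63523850 to 63526672) had 183 and 89.5 CPM in CD4 cells of the 1797 libraries and 107 and 92.3 CPM in those of the control libraries, against 4.99, 2.88, 1.88 and 1.04 CPM in CD8 cells of the same libraries. The gates lay far apart (log2 fold change 5.55 ± 0.23, SE; edgeR adjusted p 2.7e-07). CD40LG, the ligand by which helpers license B cells and macrophages, averaged 61.0 ± 7.08 CPM in CD4 cells and 6.86 ± 3.21 CPM in CD8 cells (SD, n = 4 libraries), a log2 fold change of 3.20 ± 0.24 with an edgeR adjusted p of 1.1e-05. It was seen in 31.8, 26.3, 33.6 and 34.8% of CD4 cells, against 0 to 0.17% of B cells and 0.15 to 0.79% of macrophages, so its signal was above the share in cells that lack the gene. TNFRSF4, NPAS2, CDK14, PTPN13, CRIM1, IL2RA, GCNT4, IL6R, NDFIP2 and RABGEF1 were the 10 genes up in CD4 cells with the lowest adjusted p among those past a log2 fold change of 1, with log2 fold changes of 5.55, 4.79, 3.72, 3.44, 3.28, 2.86, 2.55, 1.66, 1.60 and 1.28. IL6R encodes the IL-6 receptor and IL2RA the high-affinity IL-2 receptor chain.

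Killing genes separated the gates in the other direction. CCL5, a chemokine of effector cells, had 111, 182, 284 and 217 CPM in CD4 cells, against 1853, 2499, 3546 and 2972 CPM in CD8 cells. Every library had the lower value in CD4 cells (log2 fold change -3.78 ± 0.08, edgeR adjusted p 4.7e-10). GZMB (granzyme B) averaged 2.40 ± 1.35 CPM in CD4 cells and 71.3 ± 24.2 CPM in CD8 cells, and PRF1 (perforin) 3.84 ± 1.13 and 66.0 ± 17.2 CPM. Of 16 cytotoxic effector genes tested, 14 fell and none rose in CD4 cells, with a median log2 fold change of -2.84 beside -0.007 over all genes. ADGRG1, CTSW, THSD7B, CRTAM, FAM49A and ZEB2 also were among the 10 genes down in CD4 cells with the lowest adjusted p, at log2 fold changes of -2.72, -2.30, -2.18, -2.11, -1.91 and -1.66. CD8A had a log2 fold change of -3.28, beside a CD8 gate that was chosen on its partner CD8B.

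**Figure D2:**
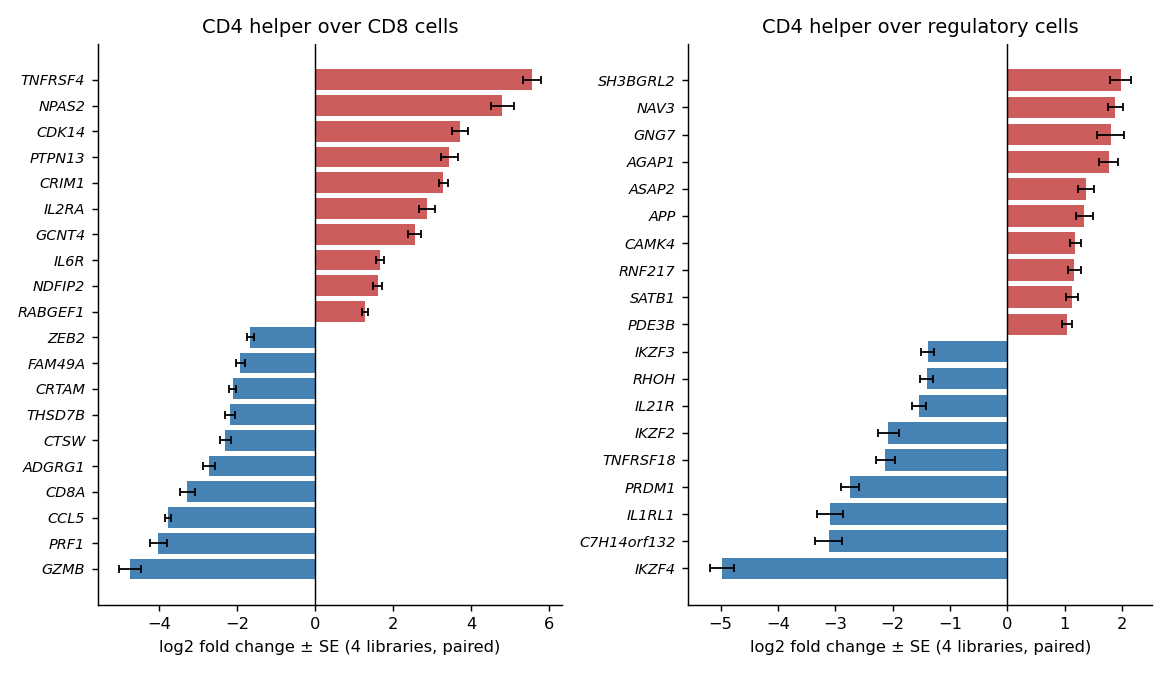
Log2 fold change ± SE of the named genes of each comparison within libraries, CD4 helper over CD8 cells (left panel) and CD4 helper over regulatory cells (right panel). Red bars are higher in CD4 helper cells and blue bars lower, from TNFRSF4 at 5.55 to GZMB at -4.74 on the left and from SH3BGRL2 at 1.97 to IKZF4 at -4.98 on the right.

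Of 23 helper lineage regulators, 10 rose and 5 fell in CD4 cells against CD8 cells. MAF rose by 1.94, GATA3 by 0.91 and ZBTB7B, the ThPOK factor that fixes CD4 fate in mice, by 1.80 on the log2 scale. RUNX3, a CD8 lineage factor, had a log2 fold change of -1.41, EOMES of -1.92 and TBX21 (T-bet) of -1.09. Of 14 naive and central memory genes, 6 rose and 1 fell. Of 18 helper cytokines, 6 rose and 4 fell, and of 21 costimulation and checkpoint genes, 6 rose and 5 fell. Over all genes 7.72% were higher and 7.31% lower. CCR7, the lymph node homing receptor, averaged 217 ± 21.9 CPM in CD4 cells and 90.1 CPM in CD8 cells (log2 fold change 1.30 ± 0.10). Homing receptors split, 6 up and 7 down of 26: CCR4, CCR6 and CXCR5 rose by 2.62, 2.08 and 1.10, while CX3CR1, ITGAE and ITGA1, markers of effector and tissue-resident cells, had -2.63, -2.14 and -2.21.

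Of 9 MHC class II genes tested, 7 were lower in CD4 cells than in CD8 cells and SLA-DOB was higher. Pig T cells are known to carry MHC class II themselves. SLA-DRA had 69.8, 36.6, 129 and 79.7 CPM in CD4 cells, against 187, 82.6, 169 and 162 CPM in CD8 cells, lower in each library. The whole list summed to 383 to 1071 CPM in CD4 cells, against 773 to 1500 CPM in CD8 cells and 8955 to 11313 CPM in B cells. How much of the T cell sums came from other cells was not tested.

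**Figure D3:**
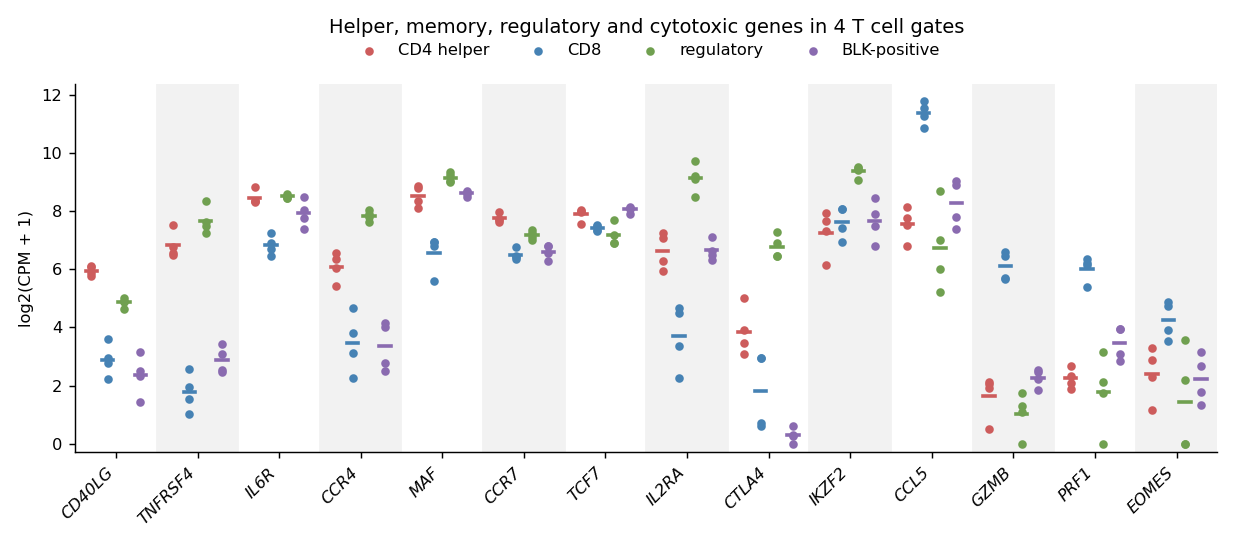
Levels of 14 genes as log2(CPM + 1), 1 point per library and a bar at the mean, in CD4 helper (red), CD8 (blue), regulatory (green) and BLK-positive T cells (purple; BLK but no CD4, CD8B or FOXP3 UMI). CD40LG is highest in CD4 helper cells in every library, and CCL5, GZMB and PRF1 are highest in CD8 cells.

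Regulatory T cells, 363 cells that met the CD4 rule except for at least 1 FOXP3 UMI, came closer. They share the CD4 sums with the comparison above, so the 2 sets of values are not independent. Compared with them, 640 of 9635 genes differed (6.64%), 267 higher in CD4 helper cells (2.77%) and 373 lower (3.87%). Single libraries weighed on this count, which was 297 without control library 1, 378 without 1797 library 2, 395 without control library 2 and 406 without 1797 library 1.

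IKZF4 (Eos, a partner of FOXP3) had 4.04, 4.28, 5.08 and 2.80 CPM in CD4 helper cells, against 145, 201, 109 and 99.4 CPM in regulatory cells. No library of one gate reached the other (log2 fold change -4.98 ± 0.21, edgeR adjusted p 1.4e-06). Lower in helpers as well were PRDM1 (Blimp-1, -2.75), IL1RL1 (the IL-33 receptor, -3.09), TNFRSF18 (GITR, -2.13), IKZF2 (Helios, -2.08), IL21R (-1.54), IKZF3 (-1.39), RHOH and C7H14orf132. IL2RA averaged 106 ± 44.0 CPM in helpers and 584 ± 197 CPM in regulatory cells, and CTLA4 15.6 ± 10.7 and 111 ± 31.4 CPM. Regulatory cells that yielded no FOXP3 UMI meet the helper rule, and how many did was not tested.

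On the helper side the leading genes were SH3BGRL2, NAV3, GNG7, AGAP1, ASAP2, APP, CAMK4, RNF217, SATB1 and PDE3B, with log2 fold changes between 1.97 and 1.03. CAMK4, a calcium-dependent kinase of T cell activation, had 613, 633, 665 and 728 CPM in helpers against 257, 245, 326 and 363 CPM in regulatory cells. SATB1, a chromatin organiser that FOXP3 represses in mice and humans, had 738, 1365, 1040 and 799 CPM against 343, 537, 604 and 347 CPM. The gates did not overlap for either gene. Of 14 naive and memory genes, 5 rose in helpers, among them LEF1 (0.91 on the log2 scale), TCF7 (0.75) and CCR7 (0.61), and FOXO1 fell. Of 23 lineage regulators 3 rose, among them STAT4 (1.01) and TBX21 (0.89), and 9 fell. Of 22 cytokine receptors 3 rose, among them IL12RB2 (1.37), and 7 fell. CD40LG rose by 1.14. Cell cycle genes ran the other way: all 19 tested had lower values in helpers, and 8 of them passed the test, with a median log2 fold change of -1.36 beside 0.012 over all genes. MKI67 averaged 13.7 ± 5.16 CPM in helpers and 55.2 CPM in regulatory cells.

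Helper regulators were detected in every library. T-bet (TBX21) had 31.9 and 30.0 CPM in 1797 libraries and 40.9 and 36.8 CPM in control libraries. GATA3 had 128 and 119 CPM against 133 and 119 CPM, and BCL6 92.4 and 69.6 CPM against 90.4 and 62.5 CPM. MAF, an IL-10 and IL-21 regulator, had 444 and 272 CPM against 459 and 325 CPM. For GATA3, BCL6 and MAF the groups overlapped. For TBX21 the 1797 libraries were the lower pair (log2 fold change -0.34 ± 0.23, unadjusted edgeR p 0.19). T-bet RNA was not particular to T cells here, since B cells had 38.3 to 79.8 CPM. The other 3 were not particular to helpers. By library, BCL6 was seen in 35.4 to 42.0% of CD4, 37.7 to 48.1% of CD8 and 53.4 to 67.5% of regulatory cells. GATA3 was seen in 44.9 to 52.9% of CD4 and 50.2 to 60.3% of BLK-positive cells, and MAF in 45.3 to 69.3% and 72.0 to 75.7%. CD8 cells had less, with GATA3 in 30.7 to 41.6% and MAF in 19.3 to 35.6%.

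Cytokine RNA was rare. Over all 1199 cells, IL2 gave 3 UMIs, IL4 gave 5, IL13 gave 1, IL17A gave 3, IL21 gave 8 and CSF2 gave 2, and none was found of IL9. IFNG was found in 42 cells with 100 UMIs and TNF in 190 cells with 314 UMIs. TNF had 14.9 and 42.4 CPM in 1797 libraries and 22.8 and 36.4 CPM in control libraries, so the groups overlapped. LTB, a lymphotoxin chain that organises lymphoid tissue, was steady at 68.6 and 73.9 CPM against 66.5 and 69.5 CPM. TGFB1, which in bone couples resorption to formation, had 913 and 977 CPM against 1052 and 1021 CPM, lower in both 1797 libraries by a log2 fold change of -0.13 ± 0.13 (unadjusted edgeR p 0.35).

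IL22 and IL17F, cytokines of TH17 and TH22 cells, came from few cells. IL22 had 89 UMIs in 19 cells, at 10.9 and 15.9 CPM in 1797 libraries and 5.08 and 0.466 CPM in control libraries. The 1797 pair was the higher one (unadjusted edgeR p 0.031, adjusted p 1.0). IL17F had 45 UMIs in 9 cells, at 1.21 and 3.89 CPM against 7.87 and 0.466 CPM, so the groups overlapped. No UMI of either was counted among the 5769287 UMIs of CD8 cells. Pooled over libraries, IL22 in CD4 cells stood at 15.4-fold a floor of 3 counts in CD8 cells. As its 89 UMIs came from 19 cells, that ratio is not a lower bound. Among the 27 cells with IL22, IL17F or IL17A, CCR6 was seen in 25.9%, against 5.46% of the other CD4 cells. In the same order, IL23R was seen in 14.8 and 1.62%, IL1R1 in 37.0 and 10.2%, MAF in 81.5 and 61.8%, and TBX21 in 3.70 and 18.5%. The median depth of these cells was 8896 UMIs, against 8571.5 UMIs in the rest. Cells with IFNG showed another profile: TBX21 in 35.7 and 17.6%, CXCR3 in 26.2 and 6.22%, and GZMK in 33.3 and 8.30% of the 42 cells and of the rest. The 42 cells were deeper, at a median of 9548.5 UMIs against 8535 UMIs in the rest. The shares of both sets describe cells that share libraries and were not tested. For scale, IL23R was seen in 1.09 to 3.18% of CD4 cells of a library, 0 to 3.51% of CD8 cells, 0.168 to 0.524% of B cells and 0.296 to 1.58% of macrophages.

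CCR4 was seen in 13.5 to 22.3% of CD4 cells of a library, against 0.698 to 5.51% of B cells and 0.205 to 1.31% of macrophages. The 237 cells with CCR4, a receptor of TH2 and skin-homing cells, had GATA3 in 66.2%, against 44.3% of the others, IL2RA in 49.8 against 16.0%, and CCR6 in 14.8 against 3.74%. Their median depth was higher, 9253 against 8346.5 UMIs. CCR4 was not particular to helpers. By library, regulatory T cells had CCR4 in 44.1 to 51.4%, GATA3 in at least 54.1% and IL2RA in at least 53.4%. CCR6 was seen in 3.75 to 12.3% of regulatory cells, below its share in the CCR4 cells. How many of the 237 cells were regulatory cells without a FOXP3 UMI was not tested. CXCR5, the follicle homing receptor, was seen in 4.77 to 8.14% of CD4 cells, against 31.5 to 44.5% of B cells, which use it themselves, and 0.296 to 1.32% of macrophages. The 78 CD4 cells with CXCR5 had TOX2 in 59.0 against 34.9% and PDCD1 in 25.6 against 15.2%, while BCL6 was seen in 35.9 against 39.8%. CCR7 was seen in 750 of the 1199 cells and in 41.3% of the 218 cells with TBX21, against 67.3% of those without. B cells had CCR7 in 74.7 to 80.4% and TBX21 in 27.5 to 42.4%, and the part of free RNA was not tested.

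Counted by list, 71.7% of CD4 cells had a UMI of an activation receptor, and 24.9 and 22.7% one of the TH1 and TH2 lists. Thinned to 5000 UMIs these shares were 60.4, 17.2 and 18.2%. The TH2 and activation lists were above the B cell share in CD4 cells but were not particular to them. Regulatory T cells had them in 46.6 to 52.7% and 89.7 to 95.0% by library. BLK-positive T cells had them in 5.71 to 9.99% and 43.4 to 53.3%. B cells had a TH2 list gene in 3.02 to 11% and an activation gene in 21.0 to 37.5%, against 17.2 to 24.8% and 63.5 to 81.4% of CD4 cells by library. For the TH1 list B cells reached 42.6%, and for the cytotoxic list macrophages reached 52.2%, so these shares are not read as expression.

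TNFSF11 (RANKL), the osteoclast-inducing ligand, had 28.2 and 2.33 CPM in 1797 libraries and 3.30 and 5.59 CPM in control libraries. Only 1797 library 1 stood high, and 56 of its 70 UMIs lay in 5 cells with at least 20 collagen UMIs. Over all libraries it had 101 UMIs in 31 cells. By library 1.59 to 5.43% of CD4 cells had a UMI, against 0.524 to 2.91% of B cells and 7.23 to 14.1% of BLK-positive T cells, and in control library 1 the CD4 share was below that of B cells (1.72%).

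CD8A, which codes for the CD8 alpha chain, was seen in 159 of the 1199 CD4 cells. The shares were 16.7% (95% exact interval 12.4 to 21.7) and 7.30% (4.52 to 11) in 1797 libraries, against 14.1% (11 to 17.7) and 14.9% (10.5 to 20.3) in control libraries. B cells of the same libraries had 2.18 to 4.53% and macrophages 0.789 to 1.58%, while CD8 cells had 64.9 to 71.8%. With CD4 cells of at least 5000 UMIs thinned to 5000 UMIs the shares were 10.7 and 4.26% in 1797 libraries, against 7.48 and 8.84% in control libraries. In 1797 library 2 the unthinned 7.30% stood beside 4.01% of its B cells, at median depths of 9014 and 11351 UMIs. B cells were not thinned, so the thinned 4.26% has no matching value. Whether CD8A was above background there was not tested. CD8B, the partner chain, was found in 7 of the CD8A-positive cells and in 11 of the CD8A-negative ones.

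Within libraries, CD8A-positive CD4 cells had higher PCLAF, DUT and CCL5 than CD8A-negative ones and lower APP, SOX4 and BACH2. Of 8739 genes tested, 86 differed (0.984%), 32 higher (0.366%) and 54 lower (0.618%). PCLAF, a PCNA clamp-associated factor, had 96.2, 132, 77.1 and 79.6 CPM in CD8A-positive cells, against 15.2, 3.77, 9.92 and 14.5 CPM in CD8A-negative cells. All 4 libraries had the higher value in CD8A-positive cells (log2 fold change 3.08 ± 0.35, edgeR adjusted p 0.0020). It was found in 54 cells, at most 35 UMIs in 1 cell. CCL5 had 359, 424, 846 and 327 CPM in CD8A-positive cells against 46.7, 164, 160 and 196 CPM in CD8A-negative cells (log2 fold change 1.82 ± 0.27, edgeR adjusted p 0.0056). GNLY, a granulysin, rose by 2.35, with single CD4 cells holding 18 of 26, 66 of 120 and 119 of 185 UMIs in 1797 library 1, 1797 library 2 and control library 1. The replication genes DUT, UHRF1, RRM2, CHAF1A and RPA3 rose by 1.76, 2.11, 1.57, 2.09 and 1.46 on the log2 scale. CGA rose by 1.20 at full depth and had -1.18 when cells were thinned to 5000 UMIs, and KIFC1, a mitotic kinesin, had 2.11 with an edgeR adjusted p of 0.074.

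Lower in CD8A-positive cells were APP (-1.10), PTPRK (-2.46), SOX4 (-1.98), PELI2 (-1.67), MAML3 (-1.53), CSGALNACT1 (-1.84), ZBTB20 (-1.16), HR, UBE2E2 and S100A9. PTPRK, a receptor phosphatase, had 53.0, 22.1, 15.4 and 25.6 CPM against 117, 224, 179 and 131 CPM in CD8A-negative cells. SOX4 had 11.8, 16.5, 30.8 and 22.7 CPM against 59.4, 113, 93.0 and 73.6 CPM. The levels did not overlap for either gene. BACH2, which holds T cells in a quiescent state in mice, had 2596, 3004, 3049 and 3136 CPM against 3574, 4444, 3741 and 4189 CPM (log2 fold change -0.49 ± 0.08, edgeR adjusted p 0.011). S100A9 is a neutrophil gene, and 1 cell held 410 of its 1445 UMIs in control library 2.

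By list, 2 of 12 cytotoxic genes tested rose, CCL5 and GNLY, and all 12 had higher values, with a median log2 fold change of 1.44 beside -0.016 over all genes. Not every library agreed for single genes: PRF1, NKG7 and GZMH were not higher in CD8A-positive cells of control library 2. Of 15 cell cycle genes tested, 2 rose, RRM2 and HMGB2, and all 15 had higher values, with a median of 0.92. Cells were also thinned to 5000 UMIs and the rule and the CD8A split applied again. That left 20 and 10 CD8A-positive cells in 1797 libraries and 23 and 17 in control libraries. Of the cell cycle genes, 8 could then be tested, 7 had higher values, none passed and the median was 0.143. None passed without 1797 library 1 or without 1797 library 2 either. Their summed level was 1705, 1770, 1266 and 1407 CPM in CD8A-positive cells, against 940, 791, 951 and 1039 CPM in CD8A-negative cells. CD8A-positive cells were also deeper in 3 libraries, with medians of 10102.5, 9938.5 and 8911 UMIs against 8021, 8115.5 and 8755 UMIs, and shallower in 1797 library 2, at 7316.5 against 9317.5 UMIs. At 5000 UMIs, with those fewer CD8A-positive cells, 24 of 6029 genes tested differed. The count was 25 without 1797 library 1, 49 without 1797 library 2 and 42 without control library 1. The 10 NK cell markers summed to 489, 568, 700 and 591 CPM in CD8A-positive cells, against 301, 316, 435 and 504 CPM in CD8A-negative cells, and their part in the result was not tested.

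**Figure D4:**
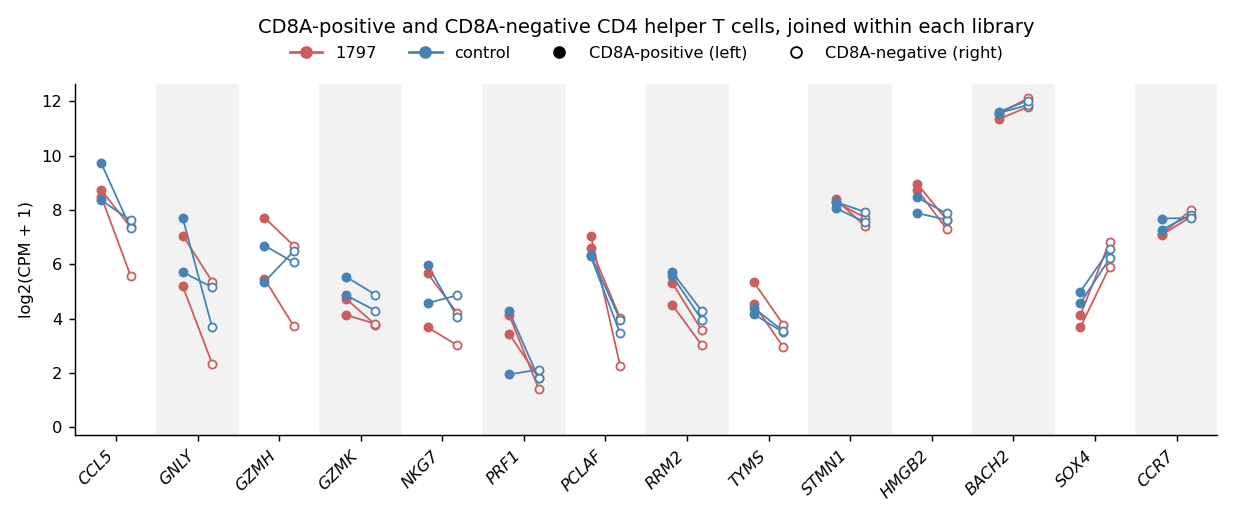
Levels of 14 genes as log2(CPM + 1) in CD8A-positive (filled, left) and CD8A-negative (open, right) CD4 helper cells, joined within each library, 1797 in red and control in blue. PCLAF, RRM2 and CCL5 are higher and SOX4 and BACH2 lower in CD8A-positive cells of all 4 libraries.

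The study's question was what the 1797 peptide changes in regenerated bone. In CD4 helper cells, edgeR called 0 of 9593 genes between 1797 and control at an adjusted p under 0.05 (0%), and 321 had an unadjusted p under 0.05 (3.35%). DESeq2 on the same counts called 7 (0.073%). Leaving out 1797 library 1 gave 9 calls and leaving out 1797 library 2 gave 27. The calls without 1797 library 2 included matrix genes. COL1A1 and COL1A2 had log2 fold changes of 2.09 and 2.57 there, and COL6A2, COL6A3, LUM and SPARC 3.55, 4.60, 3.83 and 3.24. Without 1797 library 1, COL1A1 and COL1A2 had the opposite sign, at -2.91 and -2.61. In 1797 library 1, 5 CD4 cells held 4910 of the 5367 collagen UMIs.

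The genes below, apart from IL6ST, RUNX3 and other list members, were ranked by size. The ranked genes had an unadjusted p under 0.05 and no overlap between groups, and none passed in edgeR. Over all genes 29.6% had no overlap and 3.35% had an unadjusted p under 0.05. DESeq2 called SLA-1, MT-2B, TIAM2, NUPR1 and FAM174B of these. SLA-1, a classical MHC class I heavy chain (chromosome 7, 22824137 to 22920154), had 1953 and 1900 CPM in 1797 libraries and 741 and 722 CPM in control libraries. The pairs were tight and far apart (log2 fold change 1.39 ± 0.12, edgeR adjusted p 0.18). SLA-1 differed alike in CD8 cells, at 1677 and 1764 CPM against 635 and 598 CPM, and in B cells, at 1272 and 1560 CPM against 468 and 498 CPM. SLA-1 is polymorphic and has near-identical relatives, between which counting could split reads, so its level is uncertain. Among CD4 cells without any macrophage or B cell marker UMI, SLA-1 was called, at 1.47 with an edgeR adjusted p of 0.010. This setting was chosen after seeing the data. It kept 155 and 133 cells in 1797 libraries and 161 and 60 in control libraries. Over 13 other settings the SLA-1 log2 fold change lay between 1.36 and 1.47 and the adjusted p between 4.9e-12 and 0.77.

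MT-2B, a metallothionein that binds zinc and copper, had 27.4 and 17.1 CPM in 1797 libraries and 129 and 113 CPM in control libraries, which made a log2 fold change of -2.45 ± 0.27 (edgeR adjusted p 0.23). CD8 cells had 10.8 and 9.60 CPM against 66.3 and 76.8 CPM, and regulatory cells 26.2 and 33.9 CPM against 109 and 84.7 CPM. Both 1797 libraries were below both control libraries in all 3 gates. NUPR1, a stress-response gene, had 23.0 and 70.8 CPM against 3.81 and 5.13 CPM, FAM174B 26.6 and 31.1 CPM against 4.06 and 3.73 CPM, and TIAM2 284 and 110 CPM against 25.1 and 36.8 CPM. PRELID2 had 7.26 and 29.9 CPM against 129 and 131 CPM. These 4 genes also gave groups that do not overlap in regulatory cells, while in B cells NUPR1, PRELID2 and TIAM2 overlapped. MT-2B and these 4 genes were picked for no overlap in CD4 cells of the same libraries, so the other gates are not independent. The share of all genes without overlap was not taken for the other gates.

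IL12RB2, the IL-12 receptor chain of TH1 cells, had 86.0 and 131 CPM in 1797 libraries and 304 and 192 CPM in control libraries (log2 fold change -1.19 ± 0.32, unadjusted edgeR p 0.0084). IL6ST, the shared IL-6 receptor chain, had 221 and 203 CPM against 106 and 145 CPM (0.77 ± 0.20, unadjusted edgeR p 0.0086). RUNX3 had 154 and 135 CPM against 263 and 210 CPM. None of the 3 overlapped, and none passed the adjusted test. IL6ST and RUNX3 were taken from the gene lists and not from the ranking by size. Of 22 cytokine receptors, 11 were higher and 11 lower with 1797, 1 each way with an unadjusted edgeR p under 0.05. Of 23 lineage regulators, 11 were higher and 12 lower, 0 and 2 of them with an unadjusted edgeR p under 0.05. The other genes of the ranking were COL6A2, HBM, SH3BP4, SGPP2, STK32B and SOX6 at log2 fold changes of 2.79 to 1.35, and CALCRL, AFF2, PDZD2, RASGEF1A, C2H11orf96, KLF5 and IRAK3 at -3.12 to -1.35. Single cells weighed on some of these: 1 cell held 98 of the 175 COL6A2 UMIs and 1 cell 113 of the 177 CALCRL UMIs.

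MHC class II genes had lower values in 1797 libraries. No gene of the list passed, 5 of 9 had an unadjusted p under 0.05, and 8 of 9 gave 1797 libraries below both control libraries, where 14.9% of all genes did. The median log2 fold change was -0.99, beside 0.005 over all genes, and lay between -1.20 and -0.68 over 13 other settings. SLA-DQA1 had 115 and 89.5 CPM in 1797 libraries and 225 and 199 CPM in control libraries, and was the one member called by DESeq2 (adjusted p 0.031). SLA-DQB1 had 95.2 and 60.7 CPM against 196 and 133 CPM. CD74, the invariant chain, had 173 and 115 CPM against 351 and 183 CPM. Macrophage markers moved the same way in these sums: the 12 genes summed to 61.7 and 89.8 CPM against 116 and 163 CPM, with all 6 members tested lower and CSF1R, a gate gene, at 0. B cell markers did not, at 96.0 and 17.1 CPM against 34.0 and 33.1 CPM. Among CD4 cells without a UMI of either marker list, a setting chosen after seeing the data, the class II sum was 567 and 363 CPM against 905 and 762 CPM. This setting kept 155 of 264 and 133 of 274 cells in 1797 libraries, and 161 of 440 and 60 of 221 in control libraries. Of the class II genes 7 could then be tested, all with lower values. The part of macrophage or free RNA was not tested. In regulatory cells the sum was 691 and 644 CPM against 1190 and 752 CPM, and in BLK-positive T cells 565 and 317 CPM against 760 and 650 CPM, lower in both 1797 libraries as well. Among CD8 cells it was 1500 and 773 CPM against 1296 and 1267 CPM, and the groups overlapped. All 9 genes had a lower 1797 effect in CD4 than in CD8 cells, and none passed that test.

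Cytotoxic genes were also lower by value, 10 of 10 tested with none passing. Of these, 3 had an unadjusted edgeR p under 0.05, beside 3.35% of all genes in either direction. For 5 of 10 both 1797 libraries were below both control libraries, beside 14.9% of all genes. The cytotoxic list summed to 289 and 474 CPM in 1797 libraries and 629 and 558 CPM in control libraries. CTSW had 53.3 and 47.8 CPM against 112 and 71.8 CPM. NK cell markers moved with them, at 340 and 334 CPM against 483 and 518 CPM, and their part was not tested. Among CD8 cells the cytotoxic sum was 3353 and 3970 CPM against 5528 and 4984 CPM, and in BLK-positive T cells 431 and 493 CPM against 1033 and 981 CPM, so lower values were not particular to CD4 cells. Among CD4 cells without macrophage or B cell marker UMIs it was 246 and 657 CPM against 585 and 639 CPM, and the groups overlapped. Of the other lists, naive and memory genes split 11 higher to 3 lower, cell cycle genes 5 to 11, bone-acting cytokines 3 to 7, lineage regulators 11 to 12, interferon response genes 15 to 13 and early activation genes 15 to 14, with none passing. Markers of other cells split 6 to 0 for stromal, 5 to 0 for erythroid and 1 to 8 for neutrophil genes. Summed, stromal markers had 2509 and 62.6 CPM in 1797 libraries against 345 and 455 CPM in control libraries. Erythroid markers had 3112 and 1275 CPM against 1513 and 129 CPM, and neutrophil markers 195 and 645 CPM against 251 and 2019 CPM. In each of these sums the groups overlapped.

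**Figure D5:**
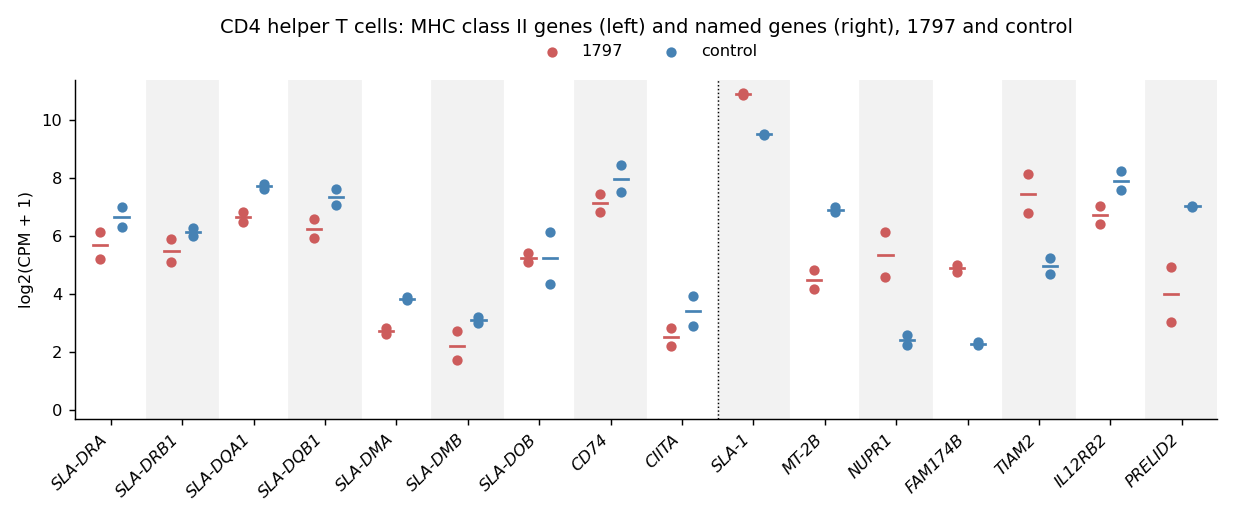
Levels of 9 MHC class II genes (left of the dotted line) and 7 named genes (right) in CD4 helper cells as log2(CPM + 1), 1 point per library and a bar at the mean, 1797 in red left of control in blue. The 1797 points lie below the control points for each class II gene except SLA-DOB, and SLA-1 is at 1953 and 1900 CPM with 1797 against 741 and 722 CPM with control.

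Whether 1797 moved CD4 and CD8 cells differently was tested as an interaction. Of 9935 genes, 15 were called (0.151%), 5 with a higher (0.0503%) and 10 with a lower (0.101%) 1797 effect in CD4 cells. BACH2 had 3373 and 4343 CPM with 1797 and 3616 and 4016 CPM with control in CD4 cells, against 3131 and 3631 CPM and 2119 and 2192 CPM in CD8 cells. Thus BACH2 was higher with 1797 in CD8 cells and overlapped in CD4 cells (interaction -0.67 ± 0.09, edgeR adjusted p 0.013). TANK, a regulator of NF-kB and interferon signalling, had 457 and 455 CPM against 571 and 537 CPM in CD4 cells, and 694 and 548 CPM against 405 and 398 CPM in CD8 cells (-0.93 ± 0.15, edgeR adjusted p 0.038). PDE7B had 119 and 114 CPM against 64.8 and 57.3 CPM in CD4 cells, and 8.32 and 9.60 CPM against 31.3 and 17.6 CPM in CD8 cells (2.33 ± 0.40, edgeR adjusted p 0.047). By value, TANK and PDE7B differed in opposite directions in the 2 gates. The count was 53, 92, 24 and 35 without 1797 library 1, 1797 library 2, control library 1 and control library 2, and 2 by DESeq2 (0.0201%).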

How the data were processed

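UMI counts per gene and cell were deposited by the authors as filtered matrices, with 20648 genes. The submitters' processing notes name Cell Ranger 5.0.0 and Sscrofa11.1, while the matrix headers, per the file headers, name 7.0.1; annotation and intron counting are not given in the sources used here. Counts were summed over the cells of a gate in each library and tested with edgeR 4.0.16 (R 4.3.3; TMM, filterByExpr, quasi-likelihood, Benjamini-Hochberg over all genes tested, threshold 0.05); DESeq2 1.42.0 was an alternative. Comparisons between gates had the library as block. Doublets were scored with Scrublet (scanpy 1.11.5) and kept. Cells were checked against thinned depths, stricter cell filters, no filter on low counts and each library left out. Named genes were up to 10 each way past an adjusted p of 0.05 and a log2 fold change of 1. Otherwise they were up to 10 with an unadjusted p under 0.05 and at least 20 CPM. Between peptide groups, no overlap between libraries was also asked. In comparisons within libraries, the same direction in every library was asked instead, so levels of named genes could overlap across libraries. The fits were tested on simulated data. The members and lists were chosen with earlier results of these data known. The labels do not tie libraries to animals, so p-values measure the spread between libraries. Gene positions are from RefSeq (Sscrofa11.1). Replicate libraries differed beyond counting noise and were counted separately. 2 libraries against 2 allow no exact permutation p below 0.333. Some genes that met the naming rule are not reported here.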

Additional observations from a re-analysis of the deposited data

Results flagged for a closer look

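For 15 genes the effect of 1797, as a log2 fold change, differed between CD4 and CD8 cells by the interaction test (edgeR adjusted p under 0.05). HBB differed by 3.42, with 3047 and 1218 CPM in 1797 and 1493 and 117 CPM in control CD4 cells, against 341 and 58.6 CPM and 1618 and 75.8 CPM in CD8 cells. It is a red cell gene, 5 cells held 4920 of its 7550 UMIs in 1797 library 1, and it was called under 9 of 9 other settings. PMAP-23, PR39 and NPG4, antimicrobial peptide genes of neutrophils, differed by -7.35, -5.92 and -5.74. PR39 had 2.83 and 14 CPM in 1797 and 1.02 and 815 CPM in control CD4 cells, and PMAP-23 and NPG4 changed sign under some settings, reaching 1.16 and 2.01. CXCL12, a stromal chemokine, differed by -7.46, with 236 CPM in CD8 cells of 1797 library 1 and at most 6.05 CPM in any CD4 sum. DLG2 differed by 5.01, and 1 CD4 cell of 1797 library 1 held 373 of its 398 UMIs there; over other settings it lay between 3.04 and 6.18 and was called in 7 of 9. DNAH7 differed by 2.62 and was called in 7 of 9. BACH2 differed by -0.67 and was called under 8 of 9 other settings. TANK differed by -0.93 (6 of 9), PDE7B by 2.33 (4 of 9) and THSD7B by -0.71 (4 of 9). Genes without a symbol made up the remaining 4, at -6.46, -5.49, 3.01 and -1.69. No explanation was tested for any of them.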

How the results depend on the processing

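The CD4 share of kept cells, 1797 minus control, lay between -1.19 and 0.231 percentage points when 1 library was left out, and was 0.231 without control library 1. For CD3 cells the difference reversed to -0.446 at 2000 and -0.112 at 1000 UMIs per cell. It was 0.118 at 5000 (chosen after seeing the data). At each thinned depth, shallower cells were left out and the rule was applied again, so fewer CD4 cells remained. With 1 library left out the CD3 difference lay between 0.281 and 1.69. Genes called between 1797 and control in CD4 cells were 0 at first, 7 by DESeq2, 3 with no filter on low counts, 4 in cells without macrophage or B cell marker UMIs (chosen after seeing the data), and 0 to 27 with 1 library left out. Over genes, same-numbered libraries did not deviate together (r = 0.008). With 2 libraries in each group this cannot settle whether the numbers pair them. With a replicate block 1 gene, MT-2B, was called. The interaction gave 15, then 2 by DESeq2, 9 with DESeq2 size factors, 89 with no filter, 6 without doublets, and 24 to 92 with 1 library left out. CD4 against CD8 cells gave 1493 and 875 to 1146 with 1 library left out. CD4 against regulatory cells gave 640, 1243 with no filter, and 297 to 406 with 1 library left out. The CD8A comparison gave 86, then 24 at 5000 UMIs per cell with fewer cells, 409 with no filter, and 25 to 79 with 1 library left out. CGA reversed there to -1.18 at 5000 UMIs. The cause of these shifts was not tested. Of 180 values of the 20 genes named for CD4 against CD8 cells, and of 180 for regulatory cells, all kept direction and side of the threshold; for the CD8A comparison 163 of 195 did and 30 no longer passed, for the interaction 144 of 178 did. Depth limits the cytokine genes, several of which had under 10 UMIs over all CD4 cells.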
